A study of Mus musculus with 94 samples.

Results

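The tubular epithelium of the renal medulla was compared between kidneys taken 14 days after ischemia-reperfusion injury (IRI) and uninjured control kidneys. The segments were chosen by their labels as medullary tubule segments of the vehicle-treated day 14 group and of the control group, which gave 6 of the 94 segments deposited, 4 from day 14 and 2 from controls. The segments came from formalin-fixed mouse kidney sections hybridized with a mouse whole transcriptome panel for digital spatial profiling (DSP) on the GeoMx platform, in which UV light cuts barcodes loose from an outlined area for sequencing. All 14 sections of the study, 2 for each of 7 groups, were from male C57BL/6 mice, and each region of interest was split by antibody staining into a tubule segment (PanCK, with or without CD10) and a macrophage segment (IBA1). The tubule segments of a region therefore hold whatever epithelium was stained and illuminated there, and glomeruli were avoided.

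The day 14 group (IRI_D14) had 1 renal pedicle clamped and received the DMSO vehicle without entospletinib, the inhibitor of spleen tyrosine kinase given to the parallel groups. The control group (CTRL) is described in the labels as contralateral uninjured kidneys and in the methods as contralateral kidneys or kidneys of healthy mice, and which of these each control section was is not given in the sources used here. No genotype other than the strain and no age is attached to the samples. Each control section contributed 1 medullary region and each day 14 section 2, numbered 014 and 015 in section 1 and 017 and 018 in section 2. The section, told apart by a prefix of the label, was the replicate (n = 2 per group). As no label says that a prefix stands for 1 mouse, the p-values measure only the spread between sections. This spread was estimated over the sections of all groups together, with information shared across probes, and not from the day 14 and control sections alone.

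The outer medulla receives little oxygen beside a high demand for active transport, and its tubules are among those most exposed to ischemic damage. Tubules that do not recover after such damage can persist in an injured state, next to infiltrating leukocytes and expanding interstitial matrix, in the passage from acute kidney injury to chronic kidney disease. The question of this comparison was how far the transcripts of medullary tubules lay from those of uninjured tubules at the latest time studied.

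The files give identifiers of probes without gene symbols, so probes are described by number, level, and direction, and 4 of them by identifier. For the same reason the tubular label could not be checked against marker genes, and the signal of negative control probes was not available as a background. Segment totals were 4821455 and 6500412 unique molecular identifier (UMI) counts in the controls, and 588814 (region 014), 4812779 (015), 4446048 (017), and 6418303 (018) on day 14. Region 014 was thus the shallowest, with a median of 16 counts per probe, although 20167 of the 20175 probes still had a count there and all had one in the other 5 segments. No 2 segments of the series held identical counts.

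By day 14, medullary tubules differed from controls at 1626 of 20175 probes (8.06%), of which 863 were higher (4.28% of probes) and 763 lower (3.78%). Counts were summed per section, scaled by the upper quartile, and compared with the quasi-likelihood test of edgeR over all 14 medullary tubule sums, and a probe was called at a Benjamini-Hochberg adjusted p under 0.05 with an absolute log2 fold change above 1. The probes called higher had a median log2 fold change of 1.46 (quartiles 1.20 and 1.94), and those called lower a median of -1.43 (quartiles -1.88 and -1.19). Changes over 4-fold were found for 191 of the higher and 159 of the lower probes, and changes over 8-fold for 40 and 33. The extremes were log2 fold changes of 5.11 and -5.18.

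The balance between both directions depended on the scaling. Over all 20175 probes, the median change was -0.30 on the log2 scale with the upper quartile and -0.07 with the trimmed mean of M values (TMM), under which the higher calls numbered 1310 and the lower calls 355. The share of calls that were higher went from 53.1% with the upper quartile to 78.7% with TMM and 73.7% with DESeq2. All 863 higher probes were also called higher under TMM, whereas 354 of the 763 lower probes were also called lower. Relative to the median of all probes, the higher probes lay at a median log2 of 1.77 and the lower probes at -1.12. No probe called with the upper quartile changed sign under any of the alternatives run. These reuse the same counts, and called probes had an absolute log2 fold change above 1, so a change of sign was unlikely from the start.

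The probes that fell had a higher median control level than the probes that rose. Part of this follows from the calls, since a lower call needs a control level above that of day 14. Levels are given as CPM, counts scaled to a common library size, on the upper quartile scale, and a level is compared here with the same probe in other samples or with the distribution over probes, since probes bind with unequal strength. The median probe was at 24.96 CPM in controls, close to the 22.8 CPM of the probes called higher, which had a median of 66.6 CPM on day 14. The probes called lower had a median of 120.0 CPM in controls, well above that of all probes, and 41.2 CPM on day 14. Among the 5044 probes above the upper quartile of mean level over the medullary tubule segments, 343 were called higher (6.80%) and 599 lower (11.9%), and below the lower quartile 27 (0.54%) and 23 (0.46%). Signal at low levels cannot be told apart from background hybridization without the negative probes.

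**Figure D1:**
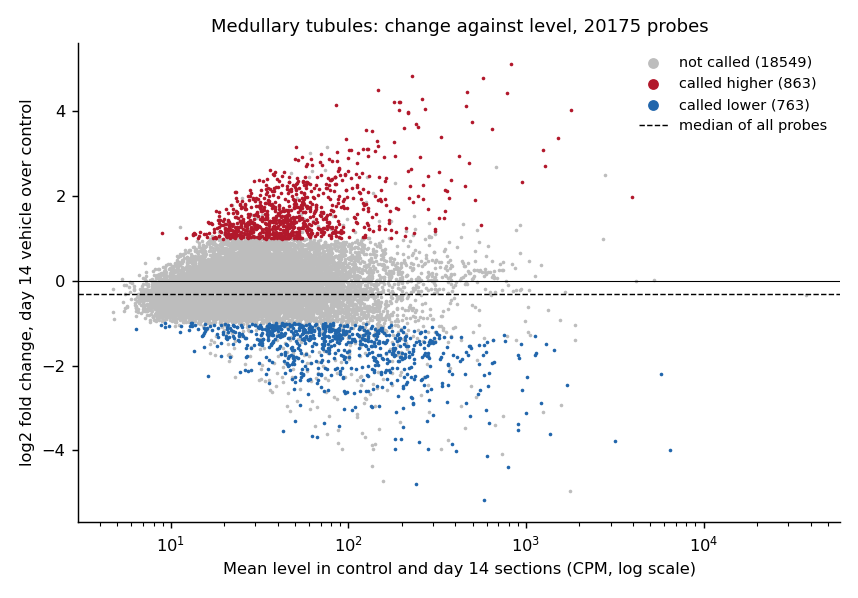
Log2 fold change of each of 20175 probes between day 14 vehicle and control medullary tubules (vertical axis) against its mean level in both groups in CPM on a log axis. Red points are the 863 probes called higher, blue points the 763 called lower, grey points the others, and the dashed line is the median of all probes at -0.30. The lower calls extend further to the right, to higher levels, than the bulk of the higher calls.

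The individual segments show how completely the groups separated. All 4 day 14 segments lay above both control segments for 805 of the 863 higher probes and below both for 689 of the 763 lower probes. The same separation held for 2630 of all probes above (13.0%) and 4913 below (24.4%), of which 1825 and 4224 were not called. As the calls were made on the same counts, these numbers describe the called probes and are no further evidence for them.

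By a rule of the smallest p among called probes whose segments did not overlap between the groups, 2 probes that rose and 2 that fell were named. RTS0064428 was at 26.8 and 23.8 CPM in the controls. On day 14 it was at 136 CPM in region 014, 640 in 015, 297 in 017, and 469 in 018. Every day 14 segment was above both controls, but the 4 spread widely, with the lowest and the highest in the same section. Over the section sums, in which deeper regions weigh more, the mean was 493 ± 133 CPM on day 14 and 25.3 ± 2.11 in controls (SD, n = 2 each). This SD leaves out the spread between regions of a section. The log2 fold change was 4.29 (SE 0.34, adjusted p = 1.47e-05).

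RTS0081452 was at 22.5 and 17.0 CPM in the controls and at 93.1, 452, 215, and 401 CPM in regions 014, 015, 017, and 018. The order of the 4 day 14 regions was the same as for RTS0064428, with 014 lowest and 015 highest. Its mean over the section sums was 370 ± 62.8 CPM on day 14 and 19.8 ± 3.89 in controls (SD, n = 2 each), a log2 fold change of 4.23 (SE 0.34, adjusted p = 1.47e-05).

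RTS0067300 fell from 57.5 and 55.6 CPM in the controls to 29.0, 9.69, 16.5, and 10.6 CPM in regions 014, 015, 017, and 018. Region 014 kept the highest level, on 19 counts. Over the section sums, in which the shallow region 014 weighs little, the mean was 12.3 ± 0.790 CPM on day 14 and 56.6 ± 1.32 in controls (SD, n = 2 each). The log2 fold change was -2.20 (SE 0.21, adjusted p = 3.4e-05).

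RTS0066003 fell from 55.4 and 58.9 CPM in the controls to 21.4, 10.4, 22.5, and 10.6 CPM in the same 4 regions. Here regions 014 and 017 were both well above 015 and 018. The mean over the section sums was 13.4 ± 2.59 CPM on day 14 and 57.2 ± 2.46 in controls (SD, n = 2 each), a log2 fold change of -2.08 (SE 0.22, adjusted p = 5.26e-05). For all 4 named probes the direction and the call held in each of the 19 alternatives, but the size moved. The log2 fold changes ran from 3.13 to 4.54 for RTS0064428, 3.03 to 4.45 for RTS0081452, -2.48 to -1.49 for RTS0067300, and -2.44 to -1.37 for RTS0066003, each smallest in size with regions 014 and 017 alone. The alternatives reuse all or part of the counts on which these probes were chosen for the smallest p. They are therefore not independent of that choice.

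**Figure D2:**
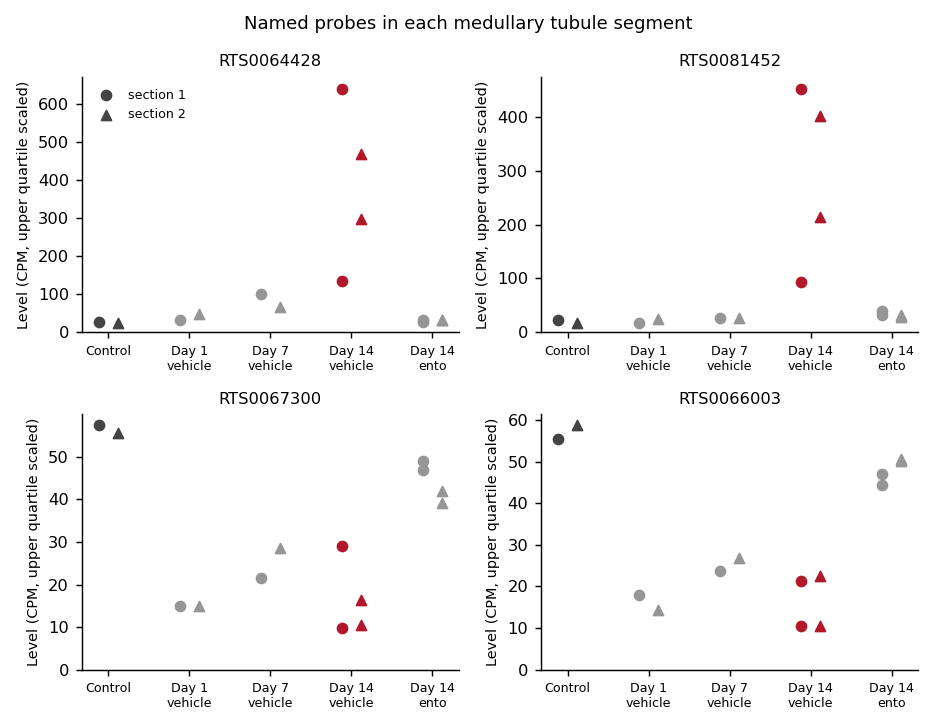
Level of the 4 named probes in CPM on the upper quartile scale in each medullary tubule segment of the control, day 1, day 7, and day 14 vehicle groups and of the day 14 entospletinib group (ento). Circles are section 1 and triangles section 2. RTS0064428 and RTS0081452 reached 93.1 CPM or more in every day 14 vehicle segment, and RTS0067300 and RTS0066003 stayed at 29.0 CPM or less there.

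The 4 day 14 regions were not equally far from control. Of the 863 higher probes, 723 were more than 2-fold above the control mean in region 015 (83.8%) and 769 in 018 (89.1%), against 310 in 014 (35.9%) and 496 in 017 (57.5%). The lower probes followed the same order, with 670 more than 2-fold below in 015 (87.8%) and 694 in 018 (91.0%), against 346 in 014 (45.3%) and 375 in 017 (49.1%). The calls were made on sums in which deeper regions weigh more, with 4812779 of the 5401593 counts of section 1 and 6418303 of the 10864351 of section 2 from regions 015 and 018, so these shares partly restate which regions made the calls. Among the 5044 probes with the highest mean level, and after centring on the median, whether called or not, the median absolute log2 difference from the 2 controls was 0.515 and 0.509 for region 015 and 0.541 and 0.576 for 018, against 0.425 and 0.379 for 014 and 0.411 and 0.443 for 017. The same measure was 0.269 between the control sections. Between day 14 regions it was 0.149 for 015 and 018, 0.175 for 017 and 018, 0.209 for 015 and 017, 0.228 for 014 and 017, 0.281 for 014 and 015, and 0.327 for 014 and 018. Regions 014 and 017 were thus no more alike than 017 was to either of the others. Region 014 was also the shallowest segment, and the part of depth in its position was not tested.

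The number of calls moved with the regions that stood for day 14. With 1 region per section, as in the controls, 1919 probes were called from regions 015 and 018, 1621 from 014 and 018, 1239 from 015 and 017, and 593 from 014 and 017. Without region 014 alone, 1702 probes were called, an alternative chosen after seeing the data.

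The sections of day 14 resembled each other in the size of the increases more than in the decreases. Against the control mean, with 5 CPM added to each level, the higher probes had a median log2 ratio of 1.30 in section 1 and 1.27 in section 2, and 592 of 863 were more than 2-fold up in both. The lower probes had medians of -1.46 and -1.22, with 534 of 763 more than 2-fold down in both, and 570 of them lay further from control in section 1. Over all probes the medians were -0.11 and -0.33. Only 5 of the higher probes (0.58%) and 29 of the lower probes (3.80%) were more than 2-fold apart between both day 14 sections, beside 110 of all probes (0.55%).

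The control sections differed more among the lower probes. They were more than 2-fold apart for 129 of these (16.9%), beside 6 of the higher probes (0.70%) and 518 of all probes (2.57%). The lower probes lay at high levels, with 599 of the 763 among the 5044 probes of highest mean level. Of those 5044, 380 (7.53%) were more than 2-fold apart, after centring on the median and with less added to each level. Leaving out control section 1 left 463 lower calls, 325 of them among the 763, and leaving out day 14 section 2 left 338, 329 of them among the 763. Without day 14 section 1 the lower calls numbered 912, but 324 of the 763 were among them, and without control section 2 there were 871, with 623 of the 763. The higher calls numbered 677 to 779 with any 1 of the 4 sections left out. The total was 1057 without day 14 section 2, and 1140 to 1691 without any of the other 3.

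**Figure D3:**
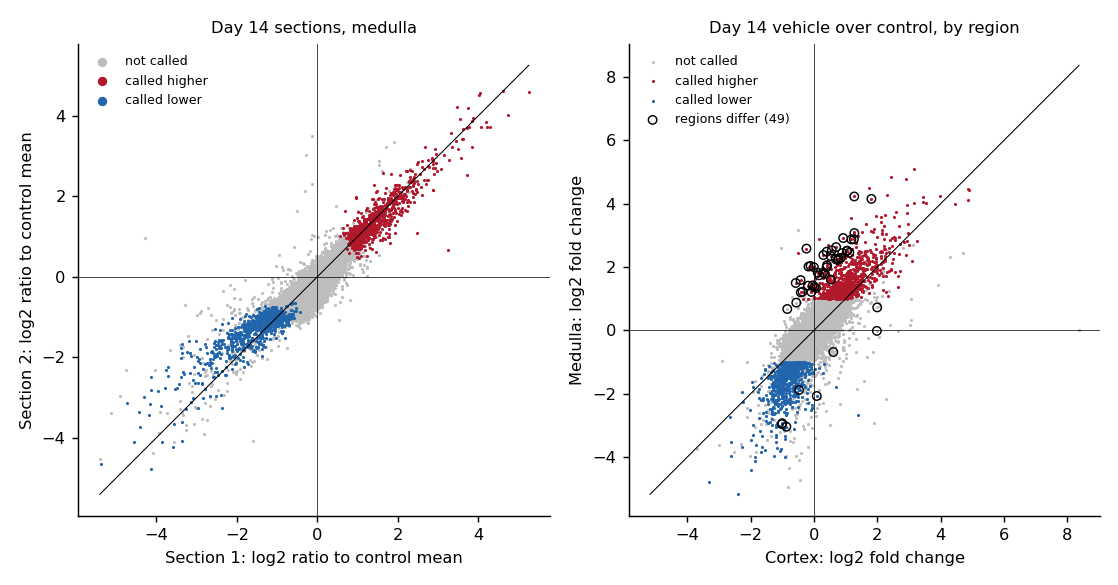
Left, log2 ratio of each probe to the control mean in day 14 section 1 (horizontal) and section 2 (vertical) in the medulla, with 5 CPM added to each level. Right, log2 fold change of day 14 vehicle over control in cortical (horizontal) and medullary (vertical) tubules. Red and blue points are probes called higher and lower in the medulla, circles the 49 probes whose change differed between the regions, and the diagonal marks equal change. The higher probes lie along the diagonal on the left and mostly above it on the right, the side favoured by choosing probes on their medullary change.

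The probes called in medullary tubules were next followed in the other segments of the series, by the percentage of a segment's counts that fell on them. In the 2 control and 4 day 14 segments used for the calls, the higher probes held 2.52% and 2.95% of counts in controls and 8.94%, 13.4%, 10.6%, and 13.8% in regions 014, 015, 017, and 018. The lower probes held 20.5% and 17.6% in controls and 9.30%, 4.57%, 8.46%, and 5.64% in the same regions. These values restate the calls. The lower probes, 3.78% of the panel, carried far more of the control counts than their number.

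The medullary tubule sums of the other groups were in the fit, where they bore on its estimate of the spread and not on the fold changes from day 14 to control. In those of the other vehicle-treated groups, the higher probes held 6.30% and 9.00% of counts on day 1 and 7.91% and 9.26% on day 7. Both values of each day lay above both controls, and the day 7 and day 1 ranges overlapped. The probes were chosen on these same control segments, so distance from the control shares follows in part from that choice. The lower probes held 5.42% and 7.14% on day 1 and 8.53% and 10.2% on day 7, so that the day 1 segments lay within the day 14 range. In entospletinib-treated kidneys on day 14, 4 segments had 2.34% to 2.78% of counts on the higher probes and 16.5% to 18.3% on the lower probes, within or close to the control ranges. On day 1 with entospletinib the higher probes held 4.31% and 5.52% and the lower probes 14.1% and 12.8%, outside the control ranges. On day 7 with entospletinib the higher probes held 2.88% and 2.42% and the lower probes 13.9% and 19.6%.

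The same probes were measured in the cortical tubules and macrophage segments of the 4 sections on which they had been chosen, so that these are other libraries but not other sections. In cortical tubules the higher probes held 9.02% ± 3.30 of counts on day 14 and 2.77% ± 0.44 in controls, and the lower probes 11.7% ± 2.62 and 20.2% ± 2.65 (SD, n = 2 sections each). In medullary macrophage segments the higher probes held 17.7% ± 1.16 on day 14 and 5.82% ± 1.72 in controls, and the lower probes 4.02% ± 0.23 and 13.7% ± 2.04. In cortical macrophage segments the shares were 16.9% ± 2.42 and 4.92% ± 0.97 for the higher probes and 5.43% ± 0.10 and 15.8% ± 0.96 for the lower probes. The sections of the groups did not overlap in any of these 6 comparisons. With 2 against 2 sections a two-sided exact permutation test cannot go below p = 0.333, so these differences could not pass a test. The control macrophage segments held 16693 to 146173 counts, far fewer than the tubule segments.

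**Figure D4:**
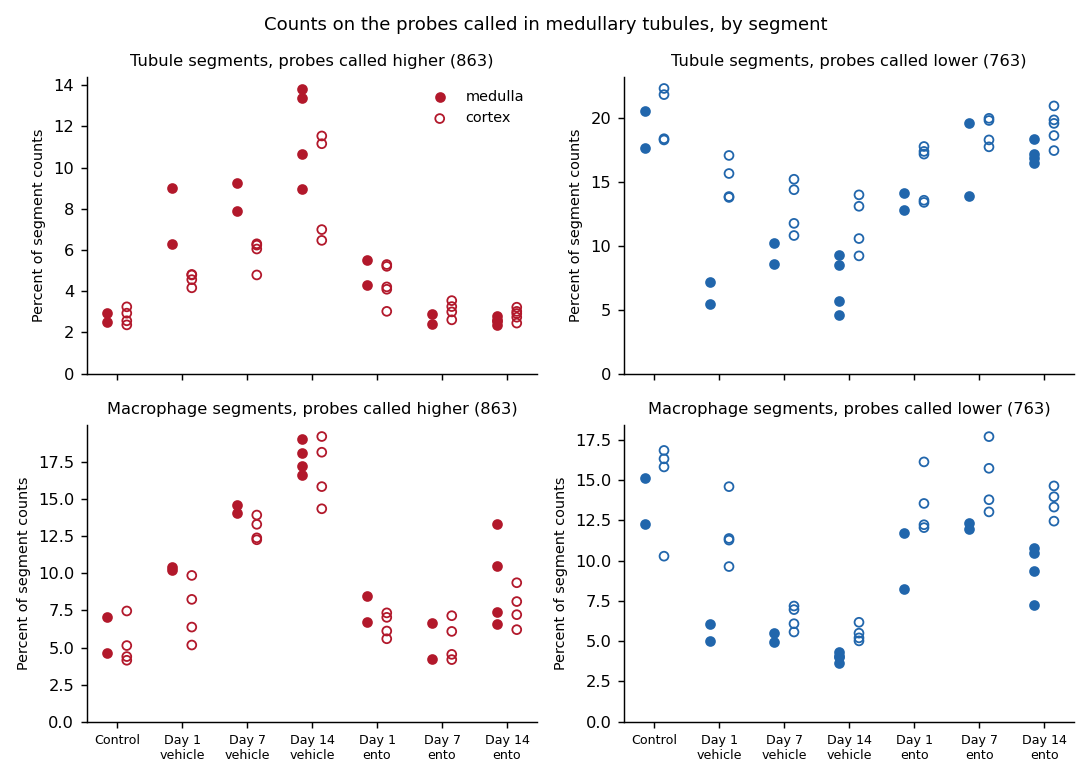
Percentage of each segment's counts on the 863 probes called higher (left) and the 763 called lower (right) in medullary tubules, for tubule segments (top) and macrophage segments (bottom) of the 7 groups. Filled points are medullary and open points cortical segments, each point 1 segment, and ento stands for entospletinib. The highest point of each left panel is a day 14 vehicle segment, and those of medullary tubules lie between 8.94% and 13.8%.

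The compartment in which the called probes were more abundant was read from the 10 sections of the day 1, day 7, and entospletinib groups. Their macrophage and cortical segments were not in the fit that made the calls, and their medullary tubule segments were in it only for the spread. Between the macrophage and tubule segments of the medulla, with the median of all probes in each section set to 0, the higher probes had a median log2 difference of 0.55 towards macrophage segments, and the lower probes -0.47, beside -0.08 for all probes. Of the higher probes, 396 (45.9%) were on the macrophage side in at least 9 of the 10 sections, beside 6.3% of all probes. Of the lower probes, 266 (34.9%) were on the tubule side in at least 9, beside 4.3% of all probes. The probes that rose in tubule segments were therefore, in other sections, mostly more abundant in the neighbouring macrophage segments, with 750 of 863 above 0 (86.9%), beside 7838 of all probes (38.9%). What part RNA of adjoining macrophages had in the day 14 tubule segments was not tested, and in such bulk segments a change in the number of cells of a type and a change in RNA per cell cannot be told apart.

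Differences between medulla and cortex in the same 10 sections were smaller. The higher probes leaned to the medulla by a median log2 of 0.11 and the lower probes to the cortex by 0.29 (median -0.29, medulla minus cortex), beside 0.00 for all probes. Among the lower probes, 185 (24.2%) were higher in the cortex in at least 9 of 10 sections, beside 5.1% of all probes. Where in the medulla a region was placed could move such probes, and its part in the day 14 change was not tested.

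Most of the medullary change was shared in direction with the cortical tubules of the same sections. The 863 higher probes had a median log2 fold change of 1.46 in medullary and 1.00 in cortical tubules, and in the latter 845 were above 0 and 434 above 1. The 763 lower probes had medians of -1.43 and -0.84, with 756 below 0 in the cortex and 236 below -1. All probes had medians of -0.30 and -0.27, and 28.6% were above 0 in the cortex. The cortical segments are other libraries, but come from the same 4 sections. The probes were chosen for a large change in the medulla, so their smaller medians in the cortex follow in part from that choice.

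The difference between the regions was tested itself, within sections, as the interaction of region and group over 28 sums. At an adjusted p under 0.05, 49 of 20175 probes (0.243%) changed by a different amount in the medulla, 41 of them more upwards and 8 more downwards. The 41 probes had a median log2 fold change of 2.06 in the medulla beside 0.40 in the cortex, and 39 of them were among the 863. The 8 probes had medians of -1.98 and -0.19, and 5 of them were among the 763. Both sets were chosen for this difference, and the 863 and 763 were called on the same medullary counts. These medians and overlaps therefore partly restate the choice. At an unadjusted p under 0.05 there were 1252 of 20175 probes, not far above the share of about 0.05 that chance alone would give. The number of such probes was not stable, since it was 0 from regions 014 and 017 or 014 and 018 (770 and 949 at an unadjusted p under 0.05), and 10, 28, 29, and 211 without control section 1, control section 2, day 14 section 1, and day 14 section 2.

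The named probes were chosen on the same medullary counts that enter this difference. Of them, RTS0081452 was among these 49. It rose in cortical tubules from 13.9 ± 2.02 to 34.1 ± 1.30 CPM (SD, n = 2 each; log2 fold change 1.27, adjusted p = 0.00898), and the medullary change exceeded the cortical by 2.97 on the log2 scale (SE 0.26, adjusted p = 1.91e-05). RTS0064428 rose in the cortex by 2.32 (adjusted p = 0.00912), and the difference of 2.14 between the regions did not pass (SE 0.76, adjusted p = 0.646). For RTS0067300 and RTS0066003 the differences of -1.002 (adjusted p = 0.204) and -1.22 (adjusted p = 0.105) did not pass either. Macrophage segments of the day 14 medulla held 582 to 934 CPM of RTS0081452 and 590 to 855 CPM of RTS0064428, in CPM of all counts, beside 104 to 523 and 151 to 741 in the tubule segments of the same regions on that scale.

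Day 14 was finally set against day 7 in vehicle-treated kidneys. The fold changes of this comparison use no control section, although the control sums bore on the estimate of the spread. This comparison uses the same day 14 sums on which the 4 named probes were chosen, so their values here are not independent of that choice. In the same fit, 233 of 20175 probes (1.15%) were called, 220 in the direction of day 14 and 13 in that of day 7, with median log2 fold changes of 1.52 and -1.50. RTS0081452 had the largest of these increases, from 27.2 and 26.8 CPM in the day 7 segments, a log2 fold change of 3.77 (SE 0.33, adjusted p = 0.000171). RTS0064428 was at 102 and 67.2 CPM on day 7 and was 2.54 higher on day 14 on the log2 scale (SE 0.31, adjusted p = 0.000723). RTS0067300 was 1.02 lower (log2 fold change -1.02, adjusted p = 0.0297), and RTS0066003 had a value of -0.90 that did not pass (adjusted p = 0.0661). The 233 calls became 104 and 154 without day 14 section 1 and 2, 29 without day 7 section 2, and 4 from regions 014 and 017 alone.

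The other comparisons with controls share the control sections, so their values stand side by side only. Against control, RTS0064428 had log2 fold changes of 0.68 on day 1 (adjusted p = 0.265), 1.74 on day 7 (adjusted p = 0.00941), 4.29 on day 14, and 0.34 on day 14 with entospletinib (adjusted p = 0.99996). RTS0081452 had values of 0.07, 0.46, 4.23, and 0.75 in the same order, of which that of day 14 vehicle passed. RTS0067300 had -1.92, -1.18, -2.20, and -0.36, and RTS0066003 had -1.81, -1.18, -2.08, and -0.25, and for both the 3 vehicle values passed. The probes that fell were thus already down on day 1, whereas RTS0081452 passed on day 14 alone of these 4 comparisons. Between day 14 entospletinib and vehicle, RTS0064428 and RTS0081452 differed by -3.95 and -3.47 and RTS0067300 and RTS0066003 by 1.84 and 1.83 on the log2 scale (adjusted p at most 0.000102). These differences also use the day 14 vehicle sums on which the probes were chosen.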

How the data were processed

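For each segment the authors deposited whole UMI counts per probe, the output of the GeoMx NGS Pipeline (version 3.1.1.5 per the file headers), before background evaluation, probe aggregation, or normalization. In 13 of 94 files, recorded under the unit other, the deposited values are the same kind of whole count. The submitters' processing notes name the build mm10, and no coordinates were used. No segment was left out, although the study excluded outliers that the sources used here do not name. The members and lists were chosen with earlier results of these data known.

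Counts of medullary tubule segments were summed per section. The filterByExpr function of edgeR, with a minimum count of 10 and a minimum total of 15, kept all 20175 probes. The 14 sums were scaled by the upper quartile and fitted together with edgeR 4.0.16 (quasi-likelihood, robust) in R 4.3.3, with 7 residual degrees of freedom and Benjamini-Hochberg adjustment. Standard errors were obtained by dividing the size of each log2 change by the root of its F statistic. The named probes were the 2 higher and 2 lower calls with the smallest p among those whose segments did not overlap. The script was tested on simulated data. Alternatives were TMM, DESeq2 1.42.0, no filter, a block, fewer groups, regions or sections, thinning, and segments as replicates (DESeq2 or limma-voom 3.58.1). Marker and pathway lists were not used, as no table paired probes with genes. Medullary tubule segments of the series held 588814 to 11699181 counts, and errors are SDs over section sums. Figures were drawn with matplotlib 3.10.9, and exact tests used scipy 1.17.1.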

Additional observations from a re-analysis of the deposited data

Results flagged for a closer look

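The change between day 14 vehicle and control differed between medullary and cortical tubules for 49 probes by the interaction test (41 more upwards and 8 more downwards in the medulla). RTS0081452, named for its medullary change, was among them, with a log2 difference of 2.97 between the regions.

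Macrophage segments, which entered no call, held a median of 17.7% of counts on the probes called higher in tubules in the 4 day 14 medullary segments, above the 4.61% and 7.04% of the control medullary segments.

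Of 44 sets of values, each over the 4 or 5 segments of 1 group, 2 had a segment far from the others, and chance alone flags about 1 in 20. A control cortical macrophage segment held 10.3% of its 31069 counts on the probes called lower, beside 15.8% to 16.8% in the other 3, and a day 7 vehicle cortical tubule segment held 4.79% of counts on the probes called higher, beside up to 6.30% in the others. None of the tested values of the 4 day 14 medullary tubule segments stood apart in this way.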

How the results depend on the processing

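For the 4 named probes the direction and the call held in all 19 alternatives. The alternatives reuse the counts on which these probes were chosen, so they are not independent of that choice. With TMM the calls were 1310 higher and 355 lower (387 against day 7), with DESeq2 on the sums 1368 and 489 (462 against day 7), and with segments as replicates in DESeq2 1314 and 496 (378 against day 7). The median over all probes was -0.07 in these 3. limma-voom on segments called 7 against day 7. Regions 014 and 017 alone gave 593 calls (418 higher, 175 lower; 4 against day 7), 014 and 018 gave 24 against day 7, 015 and 017 gave 474 lower (113 against day 7), and 015 and 018 gave 389 against day 7. A fit of only the groups compared gave 569 against day 7. Leaving out each section gave 1057 to 1691 calls, 677 to 779 higher, 338 to 912 lower, and 29 to 247 against day 7. For the difference between medulla and cortex, DESeq2 called 111, the control and day 14 sums alone 9, regions 014 and 017 and regions 014 and 018 each 0, 015 and 017 13, 015 and 018 212, and leaving out sections 10 to 211. The causes of these shifts were not tested. With a section left out, the lone sum of its group was assumed to vary like the others.

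The label prefix as a replicate block gave 1721 calls (878 higher, 843 lower) and 294 against day 7. Same-numbered sums did not deviate together in every pair of groups (correlations -0.509 to 0.624, control with day 14 -0.509), so the numbers were not taken to pair the samples. With only these 2 groups, the block gave 1295 calls and a crossed block 1791, both added after seeing the data.

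Depth limits region 014 most. Without negative probes the background under low probes is unknown. The 2 sections per group, with control kidneys of unspecified origin, limit every comparison.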
